A study of Mus musculus with 6 samples.

Results

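The 2 mature arms of miR-223, listed as mmu-miR-223-5p and mmu-miR-223-3p, are described here in macrophages grown from bone marrow, in ApoE-knockout mice (EKO) and in wild-type mice (WT). The arms were found by exact reference name among 911 mature miRNA references, and both were counted in all 6 small RNA libraries. Reads listed under stem-loop references were left out, and none of those references belonged to miR-223. The 3 EKO and 3 WT libraries are biological replicates per the series design. Both groups came from male mice aged 6 to 12 weeks, and marrow cells of both were kept in medium with 10% serum and given macrophage colony-stimulating factor (M-CSF) at 25 ng/mL every 2 days for 6 days. The EKO group lacks the gene for apolipoprotein E, a lipid-transport protein that macrophages secrete. The sources used here give neither the strain nor whether a library pools animals. The counts cover miRNAs and not Apoe mRNA, which leaves the genotype labels unchecked.

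MicroRNAs are cut from a hairpin precursor, and either side of the hairpin can be loaded into an Argonaute protein, which then represses transcripts that match the seed, a short stretch near the 5′ end. miR-223 is a myeloid miRNA: its gene is switched on by myeloid transcription factors of the C/EBP and PU.1 kinds, and it is best known from granulocytes, where it restrains their production and activity through targets such as Mef2c. In monocytes and macrophages it is known to target the inflammasome gene Nlrp3. The 3p arm is the one usually treated as the guide and the 5p arm as its passenger, which can also be loaded.

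The arms are shown because the results below turn on 2 strands of 1 hairpin. Capitals mark the seed (bases 2 to 8) in the mature arms, and both whole arms in the hairpin. All sequences are RefSeq's, on the GRCm38.p6 build, plus strand of chromosome X.
miR-223-5p: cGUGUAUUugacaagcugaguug
miR-223-3p: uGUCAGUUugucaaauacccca
Mir223 hairpin: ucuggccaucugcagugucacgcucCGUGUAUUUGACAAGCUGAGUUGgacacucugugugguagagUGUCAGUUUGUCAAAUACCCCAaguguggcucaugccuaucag

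The 110-base hairpin lies at chrX:96242817-96242926, with miR-223-5p at chrX:96242842-96242864 and miR-223-3p at chrX:96242884-96242905. In the GENCODE M21 annotation of that assembly it falls inside an exon of the long non-coding gene F630028O10Rik on the same strand, 4277 bases from Vsig4, the nearest protein-coding gene on that side. The arms are 23 and 22 bases long, with 19 bases between them, and in the fold of lowest predicted energy (RNAfold) 15 bases of each arm pair with the other arm. The seeds GUGUAUU and GUCAGUU differ. No other mature mouse miRNA in the RefSeq table has either seed. GC content was 43.5% for miR-223-5p and 40.9% for miR-223-3p, both below the median of 48% among measured miRNAs averaging at least 10 counts per 1000000 reads (CPM). Every read counted for either arm matched that arm alone, since the total and the estimated counts were equal in all 6 libraries.

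The libraries held 34651516 to 39532548 reads on mature miRNAs in EKO and 38440296 to 41331600 in WT. With at least 1 read, 543 to 591 miRNAs were detected in EKO and 664 to 698 in WT. The EKO libraries also held fewer distinct read sequences, 48275 to 57650 against 62572 to 67508 in WT. As a check of the cell type, miR-142a-3p and miR-142a-5p, found throughout blood cell lineages, summed to 731 to 1154 CPM in EKO and 1135 to 1553 CPM in WT. The arms of miR-511, carried in an intron of the macrophage gene Mrc1, were near 0, at 0.0759 to 1.62 CPM in EKO and 4.97 to 7.41 CPM in WT.

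miR-223-5p (mmu-miR-223-5p) was the abundant arm in every library, and its level was higher in EKO. Reads of miR-223-5p numbered 92614, 113834 and 101288 in EKO replicates 1 to 3, and 83096, 82914 and 80131 in WT replicates 1 to 3. Scaled to each library's total, these were 2673, 2880 and 2731 CPM in EKO, and 2162, 2006 and 1959 CPM in WT. All 3 EKO libraries lay above all 3 WT libraries, and the arm ranked 31 to 34 among the miRNAs of the EKO libraries and 38 to 43 among those of the WT libraries. The means were 2761 ± 107 CPM in EKO and 2042 ± 106 CPM in WT (± SD, n = 3 per genotype), a ratio of 1.35. With TMM scaling, which sets libraries to a common level from the bulk of the miRNAs, the log2 fold change was 0.46 ± 0.10 (SE). It did not pass the test over all miRNAs (adjusted p = 0.0766, edgeR quasi-likelihood test with Benjamini-Hochberg adjustment over 575 miRNAs).

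miR-223-3p (mmu-miR-223-3p), the usual guide, had fewer reads and stood on the other side, lower in EKO. Its reads numbered 7863, 10417 and 10423 in EKO, and 13281, 14427 and 21262 in WT. The levels were 227, 264 and 281 CPM in EKO, and 345, 349 and 520 CPM in WT. The groups did not overlap, though the gap between the highest EKO and the lowest WT library was smaller than the spread within WT, most of which came from WT replicate 3. The arm ranked 88 to 92 in EKO and 77 to 84 in WT. The means were 257 ± 27.6 CPM in EKO and 405 ± 99.6 CPM in WT (± SD, n = 3 per genotype), a ratio of 0.635. The log2 fold change was -0.62 ± 0.17 (SE) and did not pass (adjusted p = 0.0848, edgeR quasi-likelihood test). Without WT replicate 3 it was -0.43 ± 0.14 (adjusted p = 0.285, edgeR).

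**Figure D1:**
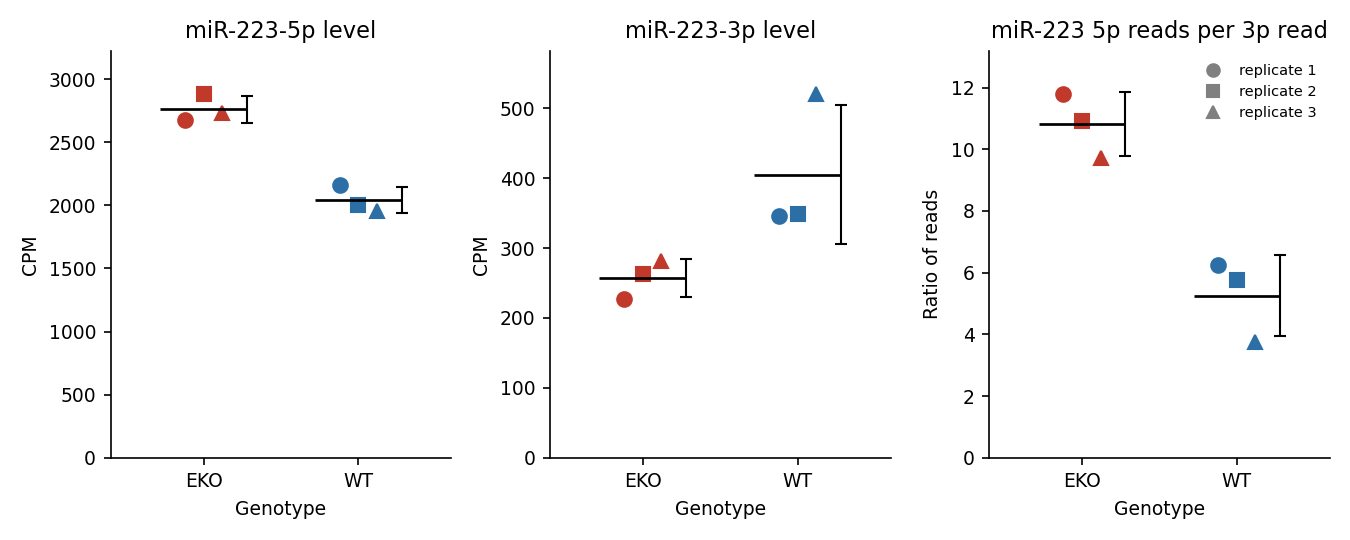
Level of miR-223-5p (left, CPM), level of miR-223-3p (middle, CPM) and 5p reads per 3p read (right) in each library, with EKO in red and WT in blue. Symbols give the replicate number, horizontal lines the mean and bars the SD of 3 libraries. The EKO libraries sit above the WT libraries for the 5p arm (2673 to 2880 against 1959 to 2162 CPM) and below them for the 3p arm (227 to 281 against 345 to 520 CPM).

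No miRNA of the 575 tested by edgeR was called at an adjusted p of 0.05 (0% called), these arms included, while DESeq2 called 43 higher (7.48%) and 49 lower (8.52%) and limma-voom 9 (1.57%) and 23 (4%). The unadjusted p was 0.0019 for miR-223-5p, where 48 miRNAs (8.35%) stood higher with an unadjusted p under 0.05, and 0.00619 for miR-223-3p, where 75 (13%) stood lower. By order of p the arms were 9th and 42nd among the miRNAs tested. Both arms had groups that did not overlap, which was common: 170 miRNAs (29.6%) did, with 68 miRNAs (11.8%) entirely higher and 102 (17.7%) entirely lower in EKO. By the size of the fold change the arms ranked 344th and 278th of 575.

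Several of the alternative settings called both arms, always in these same directions. DESeq2 gave adjusted p = 0.000296 for miR-223-5p and 0.0227 for miR-223-3p, and the edgeR test limited to the 251 miRNAs averaging at least 10 CPM gave 0.0233 and 0.044, where 10.8% were called higher and 12.7% lower. Over all 25 alternatives, miR-223-5p passed in 9 (adjusted p from 0.000296 to 0.285) and miR-223-3p in 6 (adjusted p from 0.0133 to 0.285). Base composition moved both values the same way: with each library's trend of level with GC content removed, the log2 fold change was 0.73 ± 0.15 for miR-223-5p (adjusted p = 0.085, edgeR) and -0.30 ± 0.14 for miR-223-3p (adjusted p = 0.284, edgeR).

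**Figure D2:**
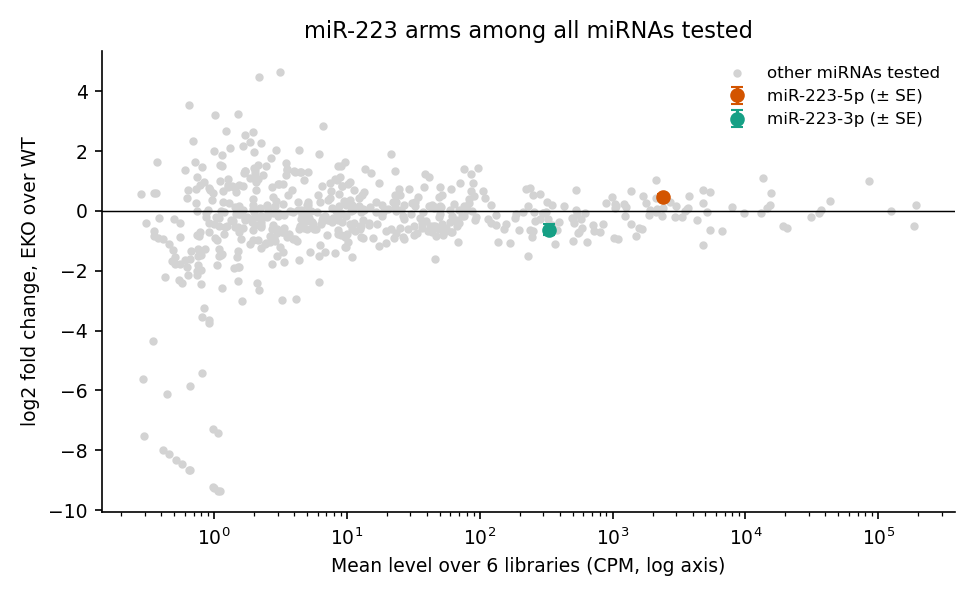
Log2 fold change of EKO over WT (vertical axis) against the mean level over the 6 libraries (horizontal axis, CPM, log scale) for the 575 miRNAs tested. Grey points are other miRNAs, and coloured points are the miR-223 arms with bars of 1 SE. miR-223-5p sits above 0 at 0.46 and miR-223-3p below 0 at -0.62, and both are inside the range of other miRNAs of like abundance.

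The ratio of the arms is free of scaling between libraries, since both counts come from 1 library. Each 3p read was matched by 11.8, 10.9 and 9.72 5p reads in EKO, and by 6.26, 5.75 and 3.77 in WT. All EKO ratios were higher than all WT ratios, with a mean of 10.8 ± 1.04 in EKO and 5.26 ± 1.31 in WT (± SD, n = 3 per genotype). As a share, 5p reads made up 92.2%, 91.6% and 90.7% of the reads on both arms in EKO, and 86.2%, 85.2% and 79.0% in WT. The widest of these shares' 95% Clopper-Pearson intervals, for WT replicate 3, ran from 78.8% to 79.3%. Such intervals cover the counting error of reads within 1 library and leave out the spread between libraries. Reads without molecular barcodes are also not independent molecules, so the intervals can be too narrow.

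On the log2 scale the ratio was 3.43 ± 0.14 in EKO and 2.36 ± 0.39 in WT (± SD, n = 3 per genotype), a difference of 1.07 ± 0.35 (SE). A limma fit of the same ratio over 154 hairpins with both arms averaging at least 10 reads called 2 of them (1.3%), 1 higher and 1 lower in EKO (0.649% each), and miR-223 was not among these (adjusted p = 0.29, limma). The exact permutation p over libraries was 0.1, the smallest that 3 against 3 allows (two-sided; 0.15 after Benjamini-Hochberg adjustment over 6 such single-value tests). Ratios of 20 hairpins (13%) were entirely higher in EKO. Of the 53 hairpins with both arms averaging at least 10 CPM, miR-223 included, 10 (18.9%) were. When the fit held only the 53 hairpins with both arms averaging at least 10 CPM, the adjusted p for miR-223 was 0.0604 (limma), the lowest of 14 alternatives, which reached 0.688. Without WT replicate 3 the difference was 0.85 ± 0.37, and with the GC trend removed it was 1.02 ± 0.34.

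Among those 53 better-measured hairpins the 5p arm had more reads in 28 by the mean log2 ratio, and the miR-223 ratio ranked 16th from the most 5p-rich. Its difference between genotypes ranked 12th in size, against a median absolute difference of 0.72. The arms stood on opposite sides of 0 in 26 of the 53. In 3 of these, both arms also had an unadjusted p under 0.05: miR-223, miR-30e and miR-674, the last 2 named after their values were seen. The order of the arms differed, since miR-30e had a log2 fold change of -0.71 for 5p and 0.50 for 3p, and miR-674 of -0.57 and 0.69. By p, the 3 hairpins with the smallest values toward 5p in EKO were miR-331 (difference 1.49 ± 0.34), miR-425 (1.83 ± 0.52) and miR-223. Those toward 3p were miR-674 (-1.24 ± 0.35), miR-340 (-1.04 ± 0.33) and miR-350 (-1.23 ± 0.45), and none of these 6 passed in the fit of 154 hairpins (limma adjusted p from 0.225 to 0.302). The fit of the 53 alone called 1 hairpin (1.89%), miR-331 (adjusted p = 0.036, limma).

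**Figure D3:**
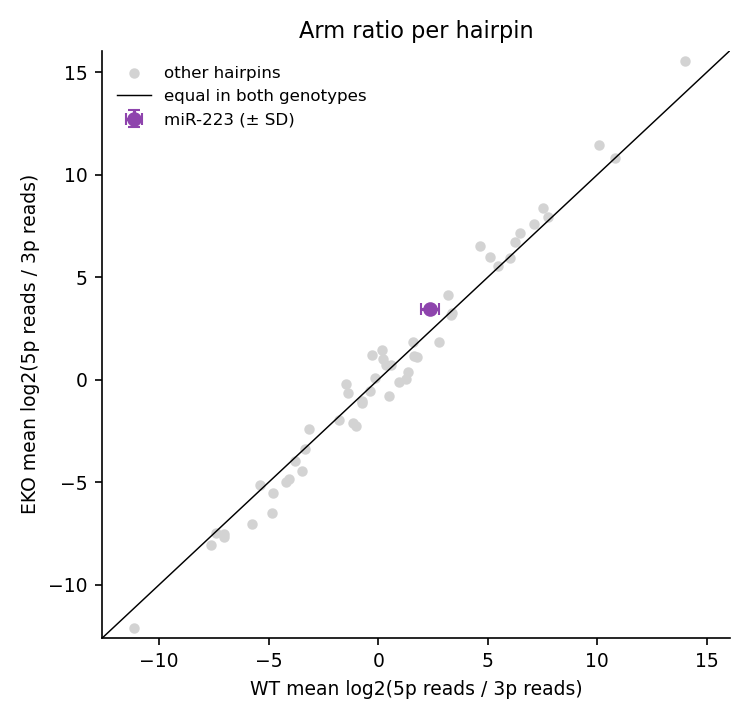
Mean log2 ratio of 5p to 3p reads in EKO (vertical axis) against WT (horizontal axis) for the 53 hairpins with both arms averaging at least 10 CPM. The line marks equal ratios, and bars on miR-223 are the SD of 3 libraries. miR-223 lies above the line, at 3.43 in EKO and 2.36 in WT, among other hairpins at similar distances from it.

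Because the arm with more reads was the higher one, the sum of both arms was higher in EKO too. The sums were 2900, 3143 and 3012 CPM in EKO and 2507, 2355 and 2478 CPM in WT. The groups did not overlap, with means of 3018 ± 122 and 2447 ± 80.7 CPM (± SD, n = 3 per genotype). EKO minus WT was 571 CPM (two-sided exact permutation p = 0.1, the smallest possible, and 0.15 adjusted over the 6 tests). Sums of other hairpins were not compared. Of single miRNAs, 68 of 575 (11.8%) were entirely higher in EKO.

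The number of distinct read sequences per arm gave another view of the same libraries. A distinct sequence can be a variant of the arm's ends or a read with an error, which the tables do not separate. miR-223-3p was represented by 161, 190 and 211 distinct sequences in EKO, and by 319, 266 and 356 in WT. These groups did not overlap (187 ± 25.1 and 314 ± 45.2, ± SD, n = 3 per genotype; two-sided exact permutation p = 0.1, 0.15 adjusted). The library totals of distinct sequences did not overlap either, at 48275 to 57650 in EKO and 62572 to 67508 in WT. How many other miRNAs had groups that did not overlap on this count was not determined. Against all distinct sequences of its library, miR-223-3p took 0.35% ± 0.0163 in EKO and 0.487% ± 0.0545 in WT (± SD, n = 3 per genotype).

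miR-223-5p was represented by 699, 831 and 838 distinct sequences in EKO, and by 842, 839 and 833 in WT. The ranges overlapped, and EKO replicate 1, the library with the fewest reads, stood apart at the low end (two-sided exact permutation p = 0.2, 0.24 adjusted, for means of 789 ± 78.3 and 838 ± 4.58, ± SD, n = 3 per genotype). Each distinct sequence of this arm carried 132, 137 and 121 reads in EKO, against 98.7, 98.8 and 96.2 in WT. Every EKO library was above every WT library on that count (exact permutation p = 0.1, 0.15 adjusted). This was not particular to the arm. The median of reads per distinct sequence over all miRNAs of a library was 24.7, 24.0 and 20.6 in EKO. In WT it was 16.6, 16.4 and 15.0. For miR-223-3p, reads per distinct sequence overlapped, at 48.8, 54.8 and 49.4 in EKO and 41.6, 54.2 and 59.7 in WT (exact permutation p = 1).

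The 5p arm had many distinct sequences for its abundance. Of the 20 miRNAs nearest to it in read count, 1 or 2 had more distinct sequences in the EKO libraries and 0 in the WT libraries, and their median was 421 to 474.5 distinct sequences in EKO and 389 to 417 in WT. For the 3p arm, 4 to 8 of the 20 nearest miRNAs had more in EKO and 0 to 5 in WT. An edgeR fit of distinct sequences in place of reads, added after seeing the data, called 23 of 351 miRNAs (6.55%). That fit is scaled by library, which matters for the 5p arm: its unscaled count averaged lower in EKO, while its share of all distinct sequences was 1.48% ± 0.0493 in EKO and 1.31% ± 0.0627 in WT (± SD, n = 3 per genotype). Both arms were called in the directions of their reads, miR-223-5p at a log2 fold change of 0.24 ± 0.06 (adjusted p = 0.0435, where 3.7% of miRNAs were called higher) and miR-223-3p at -0.42 ± 0.10 (adjusted p = 0.0406, where 2.85% were called lower). The ratio of distinct 5p to distinct 3p sequences differed by 0.65 ± 0.19 on the log2 scale (adjusted p = 0.184, limma), in a fit that called 2 of 73 hairpins (2.74%). Both arms' calls were lost when any library other than EKO replicate 3 was left out (adjusted p from 0.0719 to 0.168 for miR-223-5p and from 0.0743 to 0.168 for miR-223-3p, edgeR).

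**Figure D4:**
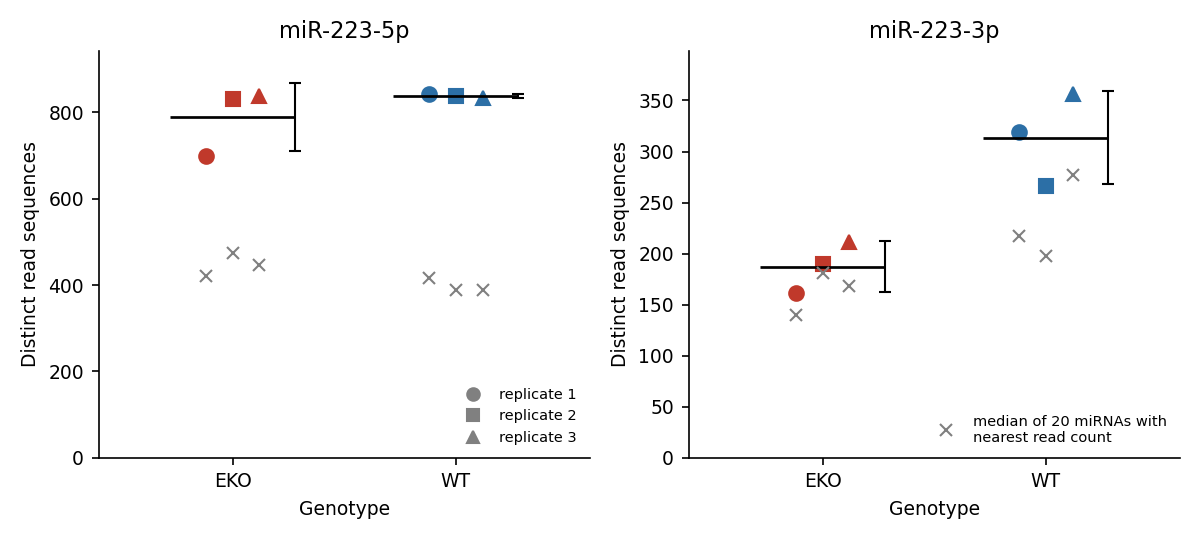
Distinct read sequences counted for miR-223-5p (left) and miR-223-3p (right) in each library, with EKO in red and WT in blue, lines at the mean and bars of 1 SD. Crosses give, per library, the median of the 20 miRNAs nearest in read count. The 3p arm had 161 to 211 distinct sequences in EKO and 266 to 356 in WT, while the 5p arm overlapped between genotypes at 699 to 838 and 833 to 842.

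A list of 26 miRNAs linked to myeloid cells and macrophages, without the miR-223 arms, gives the setting for these values. The list was chosen with earlier results of these data known, so its counts are a description. It holds both arms of miR-142a, miR-21a and miR-511, which are not separate observations. Of its members, 25 were tested, and 23 had lower values in EKO and 2 higher, where 335 of all 575 miRNAs (58.3%) had lower values. An unadjusted p under 0.05 was found for 12 of the lower ones, where 13% of all miRNAs stood lower at that p. None was called by edgeR, while DESeq2 called 8 lower and limma-voom 6 lower (8.52% and 4% of all miRNAs). The list's median log2 fold change was -0.65, against -0.16 over all 575 miRNAs. Without EKO replicate 3 the list's median was -0.98, and for distinct sequences it was -0.23. miR-223-3p at -0.62 thus lay near the list's median, and miR-223-5p at 0.46 lay above every tested member, the highest of which were miR-146a-5p, a brake on Toll-like receptor signalling, at 0.07 and miR-222-3p at 0.02. The members with the smallest p were the abundant miR-21a-5p (-0.50 ± 0.09), miR-221-3p (-1.14 ± 0.24), and miR-125a-5p and miR-125b-5p (-1.51 ± 0.32 and -0.65 ± 0.14), each with an adjusted p of 0.0766 (edgeR). With the GC trend removed miR-21a-5p was at -0.10 ± 0.15 (adjusted p = 0.833, edgeR), and for distinct sequences at -0.09 ± 0.04. The values of miR-221-3p and miR-125a-5p for distinct sequences were -0.35 ± 0.08 and -0.54 ± 0.15, and that of miR-125b-5p was -0.42 ± 0.12.

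The other haematopoietic hairpin measured well on both arms, miR-142a, had both arms on the same side. Its log2 fold change was -0.64 ± 0.20 for the 5p arm and -0.45 ± 0.19 for the 3p arm, and its log2 ratio differed by -0.20 ± 0.29 (adjusted p = 0.742, limma). Other listed hairpins with both arms averaging at least 10 CPM varied. Like miR-223, miR-221, miR-342 and miR-27a had the 5p arm above 0 and the 3p arm below 0. Their log2 ratios differed by 1.23 ± 0.48, 0.82 ± 0.37 and 0.76 ± 0.44. In miR-125a, miR-21a and miR-322 both arms were lower in EKO, with ratio differences of -0.92, 1.52 and -0.21. The miR-222 arms were near 0 (-0.05 for 5p and 0.02 for 3p). In all, 15 listed hairpins had both arms in the ratio fit, of which 8 had a positive and 7 a negative difference, none was called, and 6 differed more than miR-223 in size.

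By correlation of log2 level over the 6 libraries, the miRNAs most like miR-223-5p among the 251 averaging at least 10 CPM were miR-1981-5p (r = 0.98), miR-1198-5p (r = 0.97) and miR-139-5p (r = 0.97). Those most like miR-223-3p were miR-103-3p (r = 0.98), the combined miR-374b-5p/miR-374c-5p reference (r = 0.97) and miR-350-5p (r = 0.97). The arms themselves were inversely related (r = -0.96). These are descriptions over 6 points that fall into 2 genotype groups, and an r of at least 0.9 was reached by 21 miRNAs with miR-223-5p and by 34 with miR-223-3p.

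Markers of other cells that marrow cultures can hold were measured beside the arms, with granulocytes lacking a marker apart from miR-223 itself. Lymphoid miRNAs summed to 489 to 592 CPM in EKO and 685 to 801 CPM in WT (4 of 4 listed). Nearly all of this came from miR-181b-5p and from miR-181a-5p, which is also on the myeloid list. miR-150-5p overlapped between genotypes, at 2.60, 2.86 and 5.42 CPM in EKO and 5.96, 5.08 and 4.60 CPM in WT. miR-150-3p was at 0 in every library but WT replicate 1 (0.754 CPM). The sum of the stromal list was 77.5 to 118 CPM in EKO and 183 to 227 CPM in WT (6 of 6 listed). Most of this came from miR-143-3p, at 115, 77.4 and 73.8 CPM in EKO and 185, 211 and 165 CPM in WT. Both miR-145a-5p and miR-145a-3p were at 0 in every library but WT replicate 2. Of the 4 stromal members tested, 3 had lower values in EKO and 1 higher. The higher one, miR-214-3p, had 2.51, 1.06 and 0 CPM in EKO and 0.312, 0 and 0 CPM in WT. Erythroid miRNAs reached 117 to 145 CPM in EKO and 127 to 160 CPM in WT (2 of 4 listed, with neither miR-144 arm among the references). Nearly all of this came from the combined miR-486a-5p/miR-486b-5p reference, while miR-451a had 5.92, 5.31 and 1.29 CPM in EKO and 0, 0 and 0.587 CPM in WT. The endothelial and megakaryocyte pair miR-126a-3p and miR-126a-5p reached 64.6 to 73.1 CPM in EKO and 76.3 to 79.9 CPM in WT. Here miR-126a-5p was at 0 in every library but WT replicate 1 (0.468 CPM). The lymphoid, stromal and miR-126a sums were lower in all EKO libraries. Such separation was common, since 102 of the 575 single miRNAs (17.7%) were entirely lower in EKO. The part of these sums in the miR-223 values was not tested. In RNA from whole cultures, fewer cells of a type and less RNA per cell cannot be told apart.

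**Figure D5:**
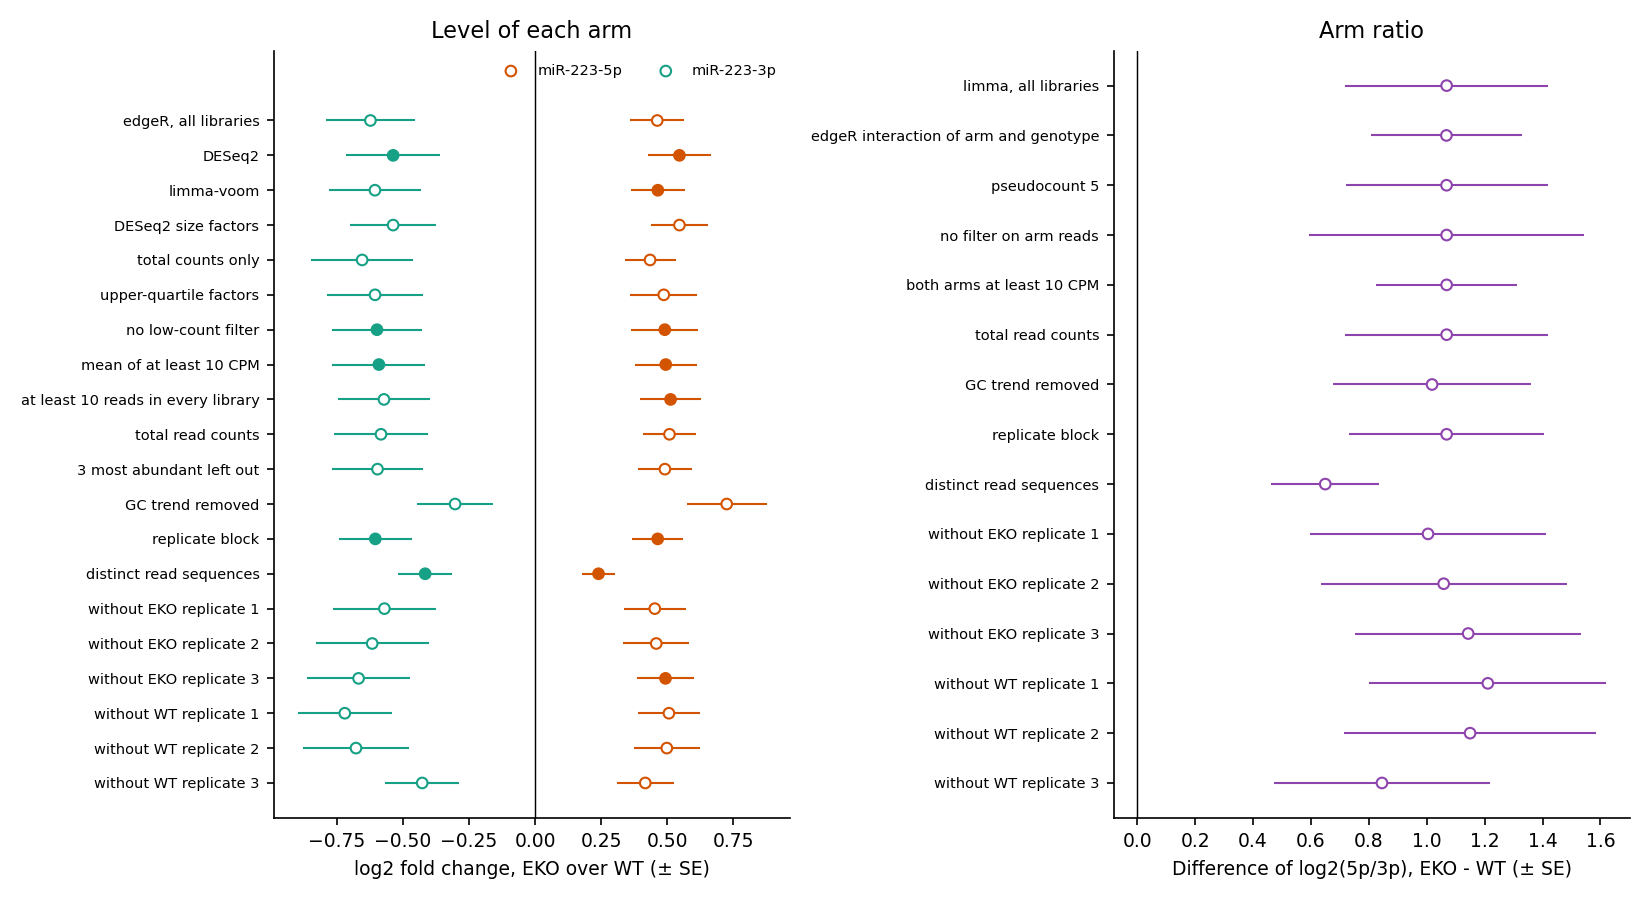
Left, log2 fold change of EKO over WT with 1 SE for miR-223-5p and miR-223-3p under each setting. Right, the EKO minus WT difference in log2 ratio of 5p to 3p reads with 1 SE. Filled points passed an adjusted p of 0.05. The 5p values lie above 0 and the 3p values below 0 in every setting drawn, and no point of the ratio panel is filled.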

How the data were processed

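Small RNA libraries were made with an NEB kit from column-purified total RNA, per the labels' protocols. Column purification can lose small RNA and ligation favours some sequences, so levels of different miRNAs, and of the 2 arms, are not on a common scale; how much this bears on the arm ratio was not tested. Per the file headers, the deposited tables hold counts of distinct read sequences and of all reads, and an estimated count that splits a read between the references it matches. The barcode count was 0 throughout. Per the submitters' processing notes the build is mm9; the sources used here name no aligner or counter. Missing references were taken as 0.

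The authors' deposited estimated counts were rounded, then tested with edgeR 4.0.16 in R 4.3.3 (TMM, filterByExpr, quasi-likelihood test on genotype, Benjamini-Hochberg). The SE is the fold change divided by the square root of F. Arm ratios, log2 with a pseudocount of 0.5 reads, were fitted with limma 3.58.1. Single values had two-sided exact permutation tests. Likeness used log2(TMM-scaled CPM + 0.5). The hairpin was folded with ViennaRNA 2.7.2. The GC trend was a local regression (span 0.75) on mature sequences; 221 of 251 miRNAs averaging at least 10 CPM (88%) had one, and the others took the median. DESeq2 1.42.0 and the other alternatives are described below. The fits were also run on simulated counts. For the arm ratio, the simulated arms were independent and had a fixed spread between libraries. That run therefore does not give error rates for these data. No pair of replicates held alike counts (chi-square per degree of freedom from 222 to 1817). Named miRNAs are both arms, listed miRNAs with the smallest p, the 3 most like each arm, and hairpins with the smallest p for the ratio. The members and lists were chosen with earlier results of these data known.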

Additional observations from a re-analysis of the deposited data

How the results depend on the processing

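Both arms kept their direction in every alternative run, and the sum of both arms and the arm ratio kept theirs too. For miR-223-5p and miR-223-3p the log2 fold changes that newly passed were 0.55 and -0.54 with DESeq2, 0.49 and -0.60 with no low-count filter, 0.49 and -0.59 at a mean of at least 10 CPM, and 0.24 and -0.42 for distinct read sequences; for miR-223-5p alone, 0.46 with limma-voom and 0.51 with at least 10 reads in every library, and 0.49 without EKO replicate 3. With each library left out, the values were 0.42 to 0.51 and -0.72 to -0.43 for reads, and 0.18 to 0.30 and -0.51 to -0.37 for distinct sequences (0.30 and -0.40, both past the threshold, without EKO replicate 3). The ratio difference was 0.85 to 1.21 over all alternatives on reads and 0.65 for distinct sequences, and that of the summed level from 509 to 631 CPM.

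Where the edgeR fit called 0 miRNAs higher and 0 lower, there were 43 and 49 by DESeq2, 9 and 23 by limma-voom, 24 and 28 unfiltered, 27 and 32 above a mean of 10 CPM, 21 and 22 under the 10-read filter, and 13 and 10 for distinct sequences. Reads gave 16 higher and 29 lower without EKO replicate 3 and 0 without any other library; over reads and distinct sequences the range was 0 to 42 higher and 0 to 30 lower. The ratio fit called 1 hairpin higher (miR-1198) and 1 lower (miR-5134), the first with 1 arm and the second with both arms under 10 CPM. The edgeR interaction and a pseudocount of 5 gave 0 and 0, no filter on arm reads 3 and 1, both arms at 10 CPM 1 (miR-331) and 0, and distinct sequences 2 and 0; without each library it called 0 to 3 higher and 0 to 1 lower. The cause of these shifts was not tested. The median of all miRNAs moved from -0.16 to -0.04 with the GC trend removed and to -0.35 with limma-voom.

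Replicate numbers were not taken to pair the libraries, since nothing in the labels says that they do. Deviations of same-numbered libraries correlated at 0.18, -0.08 and 0.29, the last being the highest of any EKO and WT pair. EKO replicates 1 and 2 correlated best with WT replicates 2 and 3 (0.26 and 0.11). With 3 libraries per group, these values cannot decide whether the libraries pair. With a replicate block the values were 0.46 and -0.60 for the 5p and 3p arms, both past the threshold (adjusted p = 0.00712 and 0.0133, edgeR), with 26 miRNAs called higher and 36 lower. The ratio difference stayed at 1.07 (adjusted p = 0.299, limma), with 0 hairpins called in either direction.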
